A study of Mus musculus with 16 samples.

Results

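The genes described here are 10 genes that mark disease-associated microglia: Trem2, Tyrobp, Spp1, Itgax, Cst7, Clec7a, Gpnmb, Cd9, Lgals3 and Igf1. They were chosen by symbol, and all 10 were found among the 24411 genes of the count table. Their levels were read in 16 RNA libraries from the brains of 8 bone marrow chimeras. Wild type C57BL/6J recipients with the CD45.2 allele had been irradiated with 950 cGy and transferred with congenic CD45.1 bone marrow. They were sacrificed either 12 h after an injection of 2.5 mg/kg lipopolysaccharide (LPS), a bacterial endotoxin, or without LPS. The labels do not say whether the mice without LPS were given a vehicle. From each brain, 10000 cells were sorted as engrafted cells (Ly6C/G-negative, CD11b-positive, low CD45.1) and as host microglia (the same gate with low CD45.2). This gave 4 groups of 4 libraries: engrafted cells and host microglia of the LPS-challenged mice 1 to 4, and engrafted cells and host microglia of the unchallenged mice 5 to 8. The host microglia of every group had therefore been irradiated, and no group came from a mouse without a transplant. The labels give the time since transplantation as 3.5 or 9 months without assignment to single libraries, and the study's text places these chimeras at 9 months, with wild type CD45.1 marrow as the graft.

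Disease-associated microglia are cells that gather at plaques, dying neurons and damaged myelin, and that lower homeostatic genes such as P2ry12 while raising genes of phagocytosis, lysosomes and lipid handling. TREM2 is a surface receptor for lipids and lipoproteins without a signalling motif of its own, and it signals through the adaptor TYROBP (DAP12) and the kinase SYK. Part of the programme depends on this receptor, and many of the same genes are used by macrophages outside the brain. The comparisons ask whether cells derived from bone marrow carry these genes at the level of their host neighbours, and whether both populations move them in the same way during a systemic inflammatory challenge.

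Libraries held 395283 to 1203597 reads on genes, and a count of 0 allows up to 3 reads, which is 2.39 to 8.41 CPM (read counts scaled to a common library size). These limits cover counting error only. The 10 genes together took 0.437 to 0.826% of the reads of a library. The summed level of 8 microglia markers was 22182 to 25220 CPM in unchallenged host microglia and 14531 to 16474 CPM in unchallenged engrafted cells, and 11512 to 12509 and 5443 to 6976 CPM after LPS. Of these 8, Sall1, a transcription factor of microglia, had the widest gap, averaging 321 CPM in unchallenged host microglia and 17.3 CPM in unchallenged engrafted cells. Fcrls had the narrowest, at 2337 and 2310 CPM. Markers of perivascular and border macrophages (8 genes) summed to 1024 to 1566 CPM over all 8 engrafted libraries and to 27.8 to 41.9 CPM over all 8 host libraries. Of these, Lyve1 was at 0 in every host library, but no engrafted library held more than 3 reads of it either. Both libraries of mice 4 and 8 stood apart by their red blood cell transcripts (5 genes), which summed to 766 to 6608 CPM there and to at most 167 CPM in the other libraries.

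Upstream windows are shown for Trem2, which fell after LPS in both populations, and for Lgals3, which rose after LPS in engrafted cells. Each is the 250 bases before the start of the deposited gene model, read from the mm9 genome, on the coding strand and ending next to the start site. Capitals mark letters matched on either strand by 1 of 6 motifs that were searched: PU.1 (GAGGAAG), AP-1 (TGANTCA), C/EBP (TTGCNNAA), NF-kB (GGGANNNNCC), RUNX (ACCACA) and E-box (CACGTG). No match overlapped another in the windows shown.
Trem2, chr17:48485476-48485725, plus strand: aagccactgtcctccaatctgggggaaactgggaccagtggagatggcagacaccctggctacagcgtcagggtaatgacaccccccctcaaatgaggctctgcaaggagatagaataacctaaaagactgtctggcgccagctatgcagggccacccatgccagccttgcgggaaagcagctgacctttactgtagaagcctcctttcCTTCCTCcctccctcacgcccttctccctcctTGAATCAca
Lgals3, chr14:47993285-47993534, plus strand: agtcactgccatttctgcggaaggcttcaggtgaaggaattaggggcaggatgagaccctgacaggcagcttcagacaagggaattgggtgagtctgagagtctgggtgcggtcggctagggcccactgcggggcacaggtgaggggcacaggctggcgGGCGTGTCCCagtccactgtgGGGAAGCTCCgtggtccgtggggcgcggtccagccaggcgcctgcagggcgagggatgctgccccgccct

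The Trem2 window held a PU.1 match that starts at position -41 and an AP-1 match at -9, counted back from the start site. The Lgals3 window held NF-kB matches at -91 and -70. Over the windows of all 24341 gene models, 10.7% held the PU.1 letters, 6.16% the AP-1 letters and 19.2% the NF-kB letters, and 3, 3 and 2 of the 10 genes did. The C/EBP letters were in 8.80% of all windows and in 1 of the 10 (Spp1, whose deposited model starts downstream of another RefSeq start), the RUNX letters in 12.4% and 2 of the 10, and the E-box letters in 6.57% and none of the 10. A match is only a description of the sequence. The windows of 7 of the 10 genes, Trem2 and Lgals3 among them, were equal to a RefSeq window of the same 250 bases.

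The 4 groups enter several comparisons, which therefore share libraries, and their values are set side by side. In unchallenged chimeras, 8 of the 10 genes differed between the populations, and they did so in both directions. A gene was called where its fold change was above 2 (log2 fold change beyond 1) with an adjusted p below 0.05 in edgeR's quasi-likelihood test across all genes that passed a filter on low counts. Spp1, Clec7a, Gpnmb, Lgals3 and Igf1 were called higher in engrafted cells, Itgax, Cst7 and Cd9 were called lower, and Trem2 and Tyrobp were not called. Over all 8042 genes tested, 11.0% were called, 6.25% higher and 4.73% lower. By the adjusted p alone 9 of the 10 genes passed, with Trem2 added, beside 27.3% of all genes, and 9 had groups without overlap, beside 26.6%. These counts include Gpnmb, Igf1, Spp1 and Itgax, which passed the filter only through the population where they were higher. The filter scales its minimum of 10 reads to library size and asks for it in 4 libraries. Unchallenged host libraries held 0 to 2 reads of Gpnmb, 1 to 8 of Igf1 and 7 to 17 of Spp1. Unchallenged engrafted libraries held 10 to 12 reads of Itgax. After LPS, 9 of the 10 genes passed the filter, of which Spp1, Gpnmb and Lgals3 were called higher and Itgax, Cst7 and Cd9 lower in engrafted cells. Here 11.1% of 7843 genes were called, 6.73% higher and 4.34% lower. By the adjusted p alone 7 of the 9 passed, beside 17.2% of all genes, and 7 had groups without overlap, beside 20.6%. Gpnmb again passed the filter only through its engrafted libraries, with 0 to 3 reads in a host library. Itgax, which was called, and Clec7a, which was not, passed it only through their host libraries. Engrafted libraries after LPS held 1 to 11 reads of Itgax and 6 to 20 of Clec7a.

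LPS moved the genes in both directions. In engrafted cells, Spp1, Cst7 and Lgals3 rose, Trem2, Clec7a, Cd9 and Igf1 fell, Tyrobp and Gpnmb were not called, and Itgax did not pass the filter. The share called among all 7609 genes was 21.5%, with 10.2% higher and 11.3% lower. The same 7 of 9 passed by the adjusted p alone, beside 38.7% of all genes, and had groups without overlap, beside 35.0%. Among them, Cst7 passed the filter only through the LPS libraries, with 8 to 23 reads in an unchallenged one. Clec7a and Igf1 passed only through the unchallenged libraries, with 6 to 20 and 10 to 25 reads in a library after LPS. In host microglia, Spp1 rose, Trem2, Clec7a and Cd9 fell, Tyrobp, Itgax, Cst7 and Lgals3 were not called, and Gpnmb and Igf1 did not pass the filter. There 18.0% of 8238 genes were called, 7.66% higher and 10.4% lower. With Cst7 added, 5 of 8 passed by the adjusted p alone, beside 39.7% of all genes, and had groups without overlap, beside 35.7%. Here Spp1 passed the filter only through the LPS libraries, with 7 to 17 reads in an unchallenged one. A direct test of the difference between both LPS responses, over all 16 libraries, called 3 of the 10 genes: Cst7 and Lgals3 with the more positive and Clec7a with the more negative response in engrafted cells. Of all 8847 genes, 4.95% were called in this test, 2.45% positive and 2.50% negative, and 5.88% passed by the adjusted p alone, as did the same 3 genes.

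**Figure D1:**
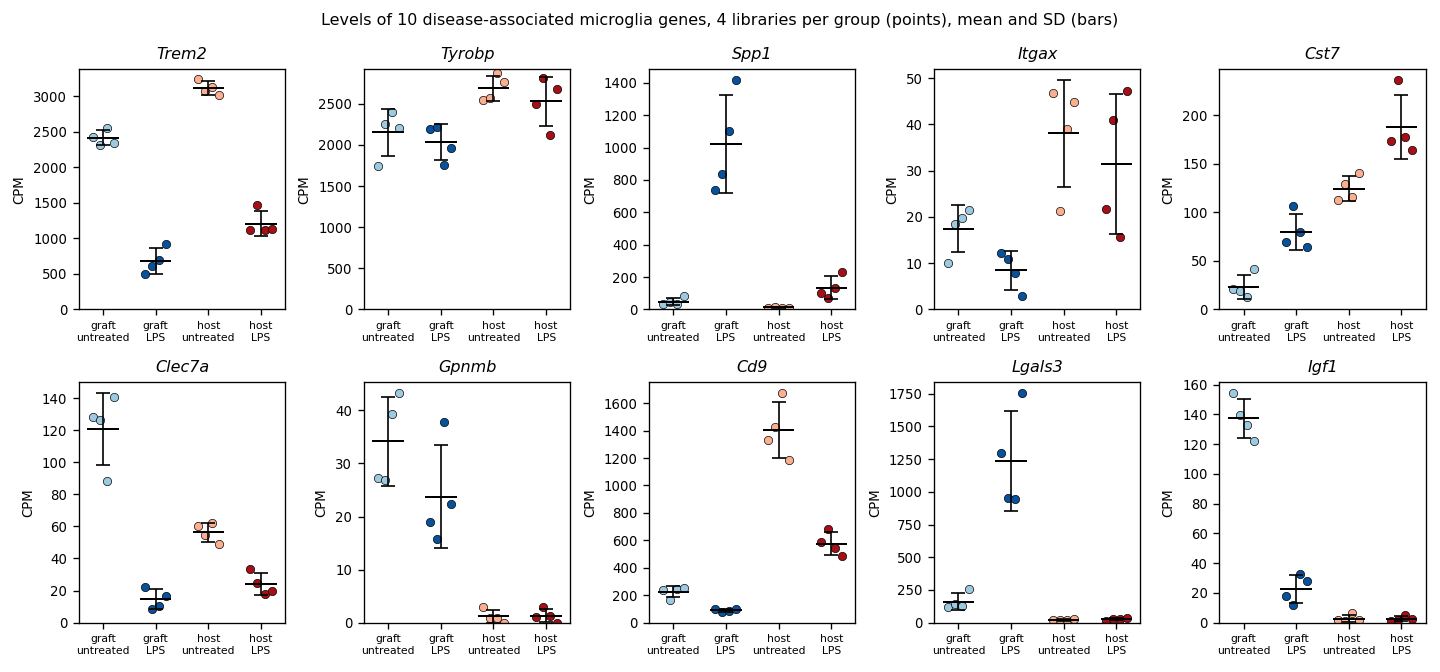
Level of each of the 10 genes in CPM (linear axes from 0, a scale of its own in each panel) in engrafted cells (graft) and host microglia, unchallenged and after LPS. Points are libraries, lines are means and bars are SD over 4 libraries. Trem2 is lower after LPS in both populations, whereas Tyrobp overlaps, and Lgals3 reaches 942 to 1752 CPM only in the engrafted libraries after LPS.

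Trem2 (NM_031254, chr17:48485726-48491601, plus strand) stood at 2435, 2321, 2556 and 2349 CPM in the unchallenged engrafted libraries of mice 5 to 8 and at 3250.0, 3073, 3135 and 3023 CPM in the host libraries of the same mice. After LPS it was at 497, 605, 689.6 and 922 CPM in the engrafted libraries of mice 1 to 4 and at 1124, 1471, 1112 and 1128 CPM in their host libraries. Every LPS library was below every unchallenged one, and within each of the 8 mice the engrafted cells were below the host. Trem2 fell by 1.87 on the log2 scale in engrafted cells (SE 0.20, 3.64-fold, edgeR adjusted p = 5.3e-07) and by 1.38 in host microglia (SE 0.14, 2.61-fold, edgeR adjusted p = 7.6e-08). In bulk samples of this kind, fewer cells of a type and less RNA per cell cannot be told apart. The responses did not differ past the threshold (difference -0.50, SE 0.23, edgeR adjusted p = 0.240). Between populations, the engrafted cells were lower by a log2 difference of -0.31 in unchallenged mice (SE 0.10, edgeR adjusted p = 0.0156) and -0.81 after LPS (SE 0.22, edgeR adjusted p = 0.0142), both short of 2-fold. The second of these became -1.03 without mice 4 and 8 (edgeR adjusted p = 0.000741), which is past 2-fold.

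Tyrobp (NM_011662, chr7:31198807-31202598, plus strand), the adaptor through which TREM2 signals, did not follow its receptor. Its level was 1749, 2249, 2400.3 and 2206 CPM in unchallenged engrafted libraries and 2193, 2222, 1754 and 1965 CPM after LPS. In host libraries it was 2543, 2567, 2869 and 2764 CPM unchallenged and 2500.1, 2816, 2124 and 2676 CPM after LPS. The LPS groups overlapped their controls in both populations, with log2 fold changes of -0.12 in engrafted cells (SE 0.17, edgeR adjusted p = 0.615) and -0.10 in host microglia (SE 0.14, edgeR adjusted p = 0.598). The engrafted libraries were below the host libraries of unchallenged mice without overlap, by a log2 difference of -0.26 (SE 0.11, edgeR adjusted p = 0.0745). After LPS the populations overlapped, with a log2 difference of -0.29 (SE 0.18, edgeR adjusted p = 0.304). Within each of the 8 mice, the engrafted cells were below the host.

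The number of Trem2 reads per Tyrobp read in the same library put both genes on 1 scale without a library size. It was 1.14 ± 0.170 (SD, n = 4) in unchallenged engrafted cells and 1.17 ± 0.0897 (SD, n = 4) in unchallenged host microglia. After LPS it was 0.340 ± 0.111 (SD, n = 4) and 0.479 ± 0.0518 (SD, n = 4). The ratio was thus 3.35-fold lower in engrafted cells and 2.43-fold lower in host microglia after LPS, without overlap in either (two-sided exact permutation p = 0.0286 for each, the smallest value that 4 against 4 libraries can give). Engrafted cells and host microglia overlapped in this ratio, both unchallenged (exact permutation p = 0.743) and after LPS (exact permutation p = 0.0857). The ratio compares reads of different genes and is no measure of the number of molecules.

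**Figure D2:**
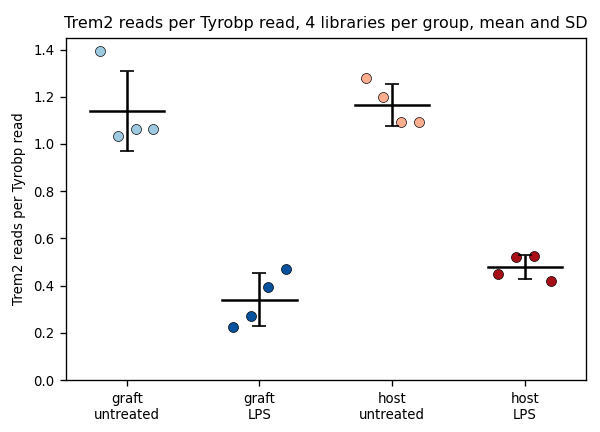
Trem2 reads per Tyrobp read in each library (points), with the mean (line) and SD (bar) of 4 libraries, on a linear axis from 0. The unchallenged libraries of both populations lie at 1.03 to 1.39 and the LPS libraries at 0.226 to 0.524.

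Spp1, Lgals3, Igf1 and Gpnmb encode secreted or matrix-binding products. Spp1 (NM_001204233, chr5:104865211-104870072, plus strand) encodes osteopontin, a secreted phosphoprotein that binds integrins and CD44. It was at 35.3, 45.5, 34.4 and 81.0 CPM in unchallenged engrafted libraries and at 740.5, 836, 1099 and 1416 CPM after LPS. In host microglia it was at 10.2, 16.5, 12.0 and 11.2 CPM unchallenged, which is 7 to 17 reads a library, and at 99.8, 69.8, 130.4 and 234 CPM after LPS. The LPS libraries of each population lay above its unchallenged ones, although the host libraries after LPS and the unchallenged engrafted libraries overlapped. Spp1 rose 20.7-fold in engrafted cells (log2 4.37, SE 0.30, edgeR adjusted p = 8.0e-10) and 10.3-fold in host microglia (log2 3.36, SE 0.33, edgeR adjusted p = 4.2e-08). Engrafted cells were 3.90-fold higher than host microglia before (log2 1.96, SE 0.30, edgeR adjusted p = 1.5e-05) and 7.81-fold higher after LPS (log2 2.97, SE 0.34, edgeR adjusted p = 3.9e-06). The difference between the responses was 1.00 (SE 0.50, edgeR adjusted p = 0.270), and it was 1.64 with edgeR adjusted p = 0.0145 without mice 4 and 8. Mice 4 and 8 had the highest engrafted value of their groups, for Lgals3 as well, and both libraries of these mice held the red blood cell transcripts. The part of those transcripts in the values was not tested.

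Lgals3 (NM_010705, chr14:47993535-48005842, plus strand) encodes galectin-3, a lectin that binds galactose-bearing glycans and damaged lysosomes. Unchallenged engrafted libraries held it at 119.9, 139.9, 126 and 257 CPM and LPS engrafted libraries at 1293, 952, 942 and 1752 CPM. In host libraries it stayed low, at 19.0, 19.4, 17.5 and 30.6 CPM unchallenged and 12.6, 30.9, 26.6 and 34.8 CPM after LPS. The lowest engrafted library after LPS was therefore far above every other group, and the host groups overlapped. Lgals3 rose 7.55-fold in engrafted cells after LPS (log2 2.92, SE 0.27, edgeR adjusted p = 7.4e-08), with a log2 fold change of 0.26 in host microglia (SE 0.29, edgeR adjusted p = 0.516). The difference between the responses was 2.65 (SE 0.43, edgeR adjusted p = 0.000201), and 2.70 without mice 4 and 8. Engrafted cells exceeded host microglia 7.60-fold in unchallenged mice (log2 2.93, SE 0.24, edgeR adjusted p = 4.3e-10) and 47.9-fold after LPS (log2 5.58, SE 0.33, edgeR adjusted p = 1.3e-09).

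Markers of another cell type moved with these increases. The summed level of 6 monocyte markers was 172 to 293 CPM in unchallenged engrafted cells and 928 to 1942 CPM after LPS, against 8.77 to 48.7 CPM in all host libraries. Within this list, mean levels in engrafted cells went from 30.1 to 716 CPM for Ly6c2, 20.8 to 405 CPM for Plac8, 22.1 to 209.7 CPM for Chil3 and 0.504 to 24.8 CPM for Vcan, while Ccr2 went from 155 to 46.2 CPM. Neutrophil markers (8 genes) summed to 266 to 1240.3 CPM in unchallenged and 48.8 to 508 CPM in LPS engrafted libraries, and to at most 15.0 CPM in host libraries. The gate left out cells with Ly6C or Ly6G on the surface. The part of monocyte and neutrophil transcripts in the engrafted values was not tested.

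Igf1 (NM_001111274, chr10:87323856-87399792, plus strand), a growth factor, marked engrafted cells and fell after LPS. Its level was 154, 139.9, 133 and 122 CPM in unchallenged engrafted libraries and 17.9, 12.2, 32.5 and 28.0 CPM after LPS. Host libraries held 1 to 8 reads, which is 0.971 to 6.38 CPM over both conditions. Igf1 was 6.47-fold lower after LPS in engrafted cells, a log2 fold change of -2.69 (SE 0.25, edgeR adjusted p = 6.5e-08). Summed over a group, the reads gave 46.0 times the host level in unchallenged engrafted cells (95% exact counting interval 26.0 to 89.8) and 8.17 times after LPS (4.03 to 18.7). These intervals hold no spread between libraries. Mouse 7 held 8 of the 12 unchallenged host reads, and without that library the first ratio was 94.2. The gene did not pass the filter for the comparison after LPS, where the groups did not overlap (two-sided exact permutation p = 0.0286). The difference between the LPS responses was -2.51 (SE 0.77, edgeR adjusted p = 0.0508), and with the mouse as a block it was -2.50 with edgeR adjusted p = 0.0372. Both estimates rest on the few host reads.

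Gpnmb (NM_053110, chr6:48986517-49008181, plus strand) encodes a transmembrane glycoprotein of phagocytic and lipid-laden macrophages. It was at 27.2, 27.0, 39.3 and 43.2 CPM in unchallenged and at 19.0, 15.9, 37.7 and 22.4 CPM in LPS engrafted libraries. No host library held more than 3 reads, and 1 host library of each condition held 0. Reads summed over a group were 32.6 times the host level in unchallenged mice (95% exact counting interval 12.3 to 122) and 16.2 times after LPS (6.59 to 51.4), again for counting error only. The ratios rest on 4 and 5 host reads, and they were 53.9 without the host library of mouse 5 and 28.5 without that of mouse 2. The engrafted groups overlapped each other, with a log2 fold change of -0.54 after LPS (SE 0.32, edgeR adjusted p = 0.185). In host microglia a change after LPS was not detectable at this depth.

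**Figure D3:**
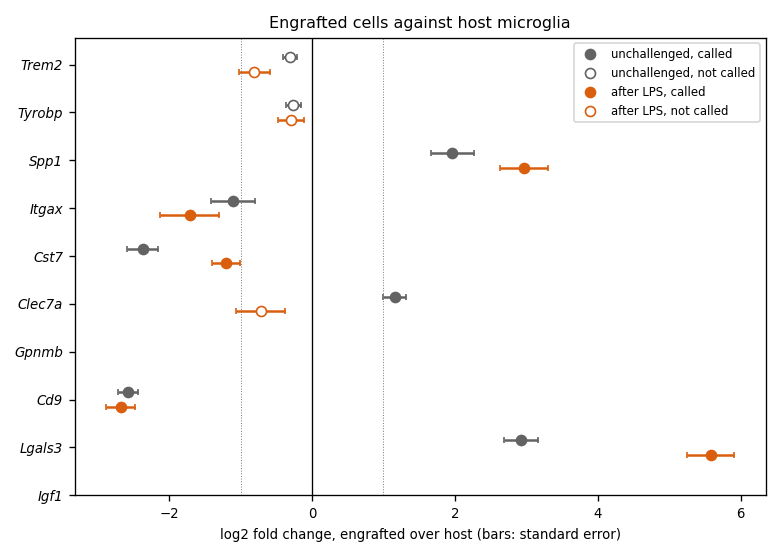
Log2 fold change of engrafted cells over host microglia in unchallenged mice (grey) and after LPS (orange), with standard errors. Filled points passed the threshold, dotted lines mark 2-fold, and Gpnmb and Igf1 are left without points because their host level is at or near the limit of counting. Spp1 and Lgals3 lie above 0, and Trem2, Tyrobp, Itgax, Cst7 and Cd9 below it, in both conditions. Clec7a lies above 0 in unchallenged mice and below it after LPS.

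Among the surface proteins, Clec7a (NM_020008, chr6:129411609-129422797, minus strand) encodes dectin-1, a receptor for fungal beta-glucans that signals through SYK. Its values were 128, 126, 88.5 and 140.4 CPM in unchallenged engrafted libraries and 22.4, 8.54, 10.4 and 16.8 CPM after LPS. In host microglia they were 60.0, 54.4, 62.2 and 49.0 CPM unchallenged and 33.3, 24.9, 18.1 and 19.5 CPM after LPS. The order of the populations thus changed: every unchallenged engrafted library lay above every host library, and after LPS the groups overlapped, with the engrafted cells below the host in each of the 4 mice. Engrafted cells were 2.23-fold higher in unchallenged mice (log2 1.16, SE 0.16, edgeR adjusted p = 3.2e-06), with a log2 difference of -0.72 after LPS (SE 0.35, edgeR adjusted p = 0.183). Clec7a was 8.55-fold lower after LPS in engrafted cells (log2 -3.10, SE 0.28, edgeR adjusted p = 3.9e-08) and 2.35-fold lower in host microglia (log2 -1.23, SE 0.22, edgeR adjusted p = 9.3e-05). The difference between these responses was -1.88 (SE 0.37, edgeR adjusted p = 0.00174).

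Cd9 (NM_007657, chr6:125410284-125444773, minus strand) encodes a tetraspanin, which organises membrane proteins and is abundant on microglia. It was at 239, 167, 247 and 252 CPM in unchallenged engrafted libraries and at 98.4, 76.9, 82.0 and 98.1 CPM after LPS. Host libraries held 1329, 1428, 1674 and 1188 CPM unchallenged and 591, 682, 543 and 488 CPM after LPS. No group overlapped another, and even the host libraries after LPS lay above the unchallenged engrafted ones. Cd9 was 5.96-fold lower in engrafted cells than in host microglia without challenge (log2 -2.57, SE 0.14, edgeR adjusted p = 1.2e-13) and 6.40-fold lower after LPS (log2 -2.68, SE 0.21, edgeR adjusted p = 3.6e-08). LPS lowered it 2.63-fold in engrafted cells (log2 -1.40, SE 0.19, edgeR adjusted p = 7.2e-06) and 2.46-fold in host microglia (log2 -1.30, SE 0.15, edgeR adjusted p = 5.1e-07). The difference between the responses was -0.11 (SE 0.24, edgeR adjusted p = 0.865).

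Itgax (NM_021334, chr7:135273082-135294171, plus strand) encodes CD11c, an integrin chain used as a marker of dendritic cells and of activated microglia. It was the least covered of the surface genes, with 1 to 12 reads in an engrafted library and 13 to 49 in a host library. Its levels were 10.1, 18.5, 19.7 and 21.6 CPM in unchallenged and 12.3, 11.0, 7.81 and 2.80 CPM in LPS engrafted libraries. Host libraries were at 46.8, 21.4, 39.1 and 44.9 CPM unchallenged and at 21.8, 40.9, 15.7 and 47.3 CPM after LPS. Engrafted cells were 2.16-fold lower without challenge (log2 -1.11, SE 0.30, edgeR adjusted p = 0.00734), where the highest engrafted and the lowest host library overlapped, and 3.28-fold lower after LPS (log2 -1.71, SE 0.41, edgeR adjusted p = 0.00667), without overlap. The first of these calls was lost without the engrafted library of mouse 5, where the log2 difference was -0.84. Within every mouse the engrafted cells were below the host. LPS gave no detectable change in either population (log2 fold change -0.28, SE 0.29, edgeR adjusted p = 0.485 in host microglia, and exact permutation p = 0.0857 in engrafted cells, where the gene did not pass the filter).

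Cst7 (NM_009977, chr2:150396151-150404680, plus strand) encodes cystatin F, an inhibitor of lysosomal cysteine proteases such as cathepsin C. It was at 21.2, 18.5, 13.1 and 41.4 CPM in unchallenged engrafted libraries and at 69.3, 106, 79.4 and 64.5 CPM after LPS. In host libraries it was at 113, 129, 116 and 139.9 CPM unchallenged and at 173, 236, 177 and 164 CPM after LPS. The 4 groups followed each other without overlap, and the engrafted cells after LPS remained below unchallenged host microglia (log2 difference -0.62, SE 0.20, edgeR adjusted p = 0.0131 in the fit of all 16 libraries). Cst7 rose 3.39-fold in engrafted cells (log2 1.76, SE 0.28, edgeR adjusted p = 6.3e-05). The log2 fold change in host microglia was 0.58 (SE 0.16, edgeR adjusted p = 0.00475), which is below 2-fold. Engrafted cells were 5.17-fold lower than the host without challenge (log2 -2.37, SE 0.22, edgeR adjusted p = 3.3e-09) and 2.29-fold lower after LPS (log2 -1.20, SE 0.20, edgeR adjusted p = 0.000218). The difference between the LPS responses was 1.17 (SE 0.31, edgeR adjusted p = 0.0240). This call was lost when the engrafted library of mouse 2, 5, 6 or 7 or the host library of mouse 8 was left out, with edgeR adjusted p of 0.0553 to 0.0698 and a log2 difference of 1.00 to 1.11.

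In the fit of all 16 libraries, the order of the 4 group levels differed from gene to gene. For Spp1, Cst7 and Cd9, each group differed from the next in the order (edgeR adjusted p of at most 0.000764, 0.0132 and 7.2e-07). Spp1 ran from engrafted after LPS through host after LPS and engrafted unchallenged to host unchallenged. Cst7 and Cd9 were higher in both host groups than in either engrafted group. Trem2 ran from host unchallenged, engrafted unchallenged and host after LPS down to engrafted after LPS, and its first and second groups did not differ past the threshold in this fit (edgeR adjusted p = 0.180). Clec7a was highest in unchallenged engrafted cells, and its lowest groups, the LPS groups of both populations, did not differ past the threshold (edgeR adjusted p = 0.0953). For Lgals3 and Igf1 the same held for the host groups (edgeR adjusted p = 0.581 and 0.852), and for Gpnmb for the host groups and for the engrafted groups (edgeR adjusted p = 0.740 and 0.194). In Tyrobp and Itgax no neighbouring groups differed past the threshold (edgeR adjusted p of at least 0.339 and 0.0614), with both host groups above both engrafted groups in each.

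**Figure D4:**
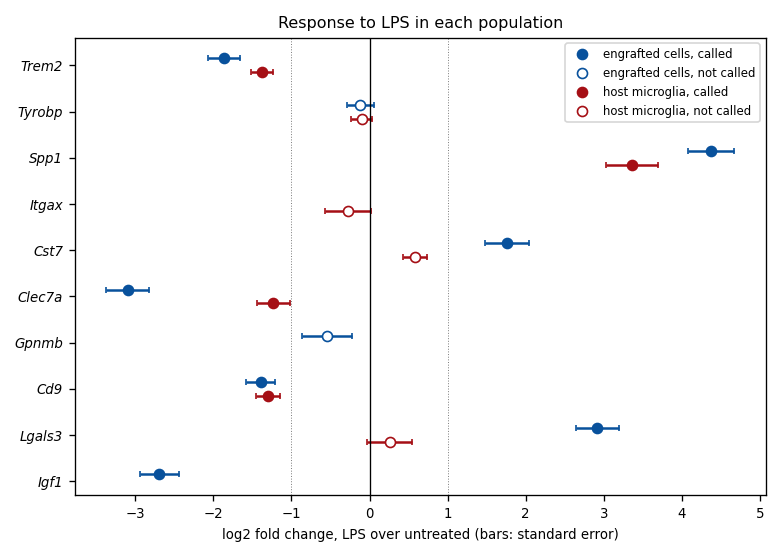
Log2 fold change after LPS over unchallenged for engrafted cells (blue) and host microglia (red), with standard errors, filled where the threshold was passed, dotted lines at 2-fold. Genes that did not pass the filter on low counts have no point (Itgax in engrafted cells, Gpnmb and Igf1 in host microglia). Lgals3, Cst7 and Clec7a are the genes whose responses differed between the populations.

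Other genes of the programme were likewise called in both directions. Of 30 further genes of disease-associated microglia, 29 were tested in unchallenged mice. In engrafted cells 7 were higher, 5 lower and 17 not called, beside 11.0% of all genes called. Their median log2 fold change was -0.06 beside 0.02 over all genes. Apoe, a carrier of lipids, averaged 68904 CPM in the engrafted and 4901 CPM in the host libraries (log2 3.87, SE 0.17, edgeR adjusted p = 1.1e-15). Lilrb4a, an inhibitory receptor with a close relative beside it in the genome, was at 693 against 48.7 CPM (log2 3.87, SE 0.15, edgeR adjusted p = 2.1e-16). The lysosomal protease gene Ctsl (log2 -1.91, SE 0.11, edgeR adjusted p = 8.6e-13) and the chemokine gene Ccl4 (log2 -1.49, SE 0.13, edgeR adjusted p = 9.6e-10) were lower. After LPS, the median over the 30 genes was -0.13 beside -0.01 over all genes. Of these 30, 7 were higher and 7 lower, beside 11.1% of all genes called. Among those with a mean of at least 50 CPM, Apoe (log2 4.09, SE 0.28, edgeR adjusted p = 7.3e-09) and the phagocytic receptor gene Axl (log2 2.71, SE 0.23, edgeR adjusted p = 9.7e-08) were higher, and Ch25h, which makes 25-hydroxycholesterol (log2 -2.64, SE 0.62, edgeR adjusted p = 0.00548), and Ctsl (log2 -1.72, SE 0.19, edgeR adjusted p = 3.2e-06) lower.

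LPS raised 7 and lowered 5 of 28 such genes in engrafted cells, beside 21.5% of all genes called. It raised 7 and lowered 2 of 29 in host microglia, beside 18.0%. The medians were -0.03 and 0.08 beside -0.01 and 0.01 over all genes. In engrafted cells the chemokine gene Ccl6 rose from 72.5 to 371 CPM (log2 2.33, SE 0.26, edgeR adjusted p = 6.4e-07) and Fth1, the ferritin heavy chain, which has many processed copies in the genome, from 5255 to 20579 CPM (log2 1.93, SE 0.18, edgeR adjusted p = 5.3e-08). Cadm1, an adhesion molecule, and Timp2, a metalloprotease inhibitor, fell there (log2 -2.14 and -1.30, SE 0.27 and 0.17, edgeR adjusted p = 3.1e-06 and 6.8e-06). In host microglia Ch25h rose from 20.3 to 755 CPM (log2 5.17, SE 0.65, edgeR adjusted p = 1.6e-06) and Lilrb4a from 48.7 to 561 CPM (log2 3.50, SE 0.17, edgeR adjusted p = 1.1e-12). Cadm1 fell in these cells as well (log2 -1.81, SE 0.17, edgeR adjusted p = 2.5e-08). The responses of 4 of 30 genes differed between the populations, among them Ccl6, with the more positive response in engrafted cells (difference 3.29, SE 0.32, edgeR adjusted p = 8.0e-08), and Ch25h and Lilrb4a, with the more negative one (-3.71 and -2.78, SE 0.81 and 0.25, edgeR adjusted p = 0.00483 and 1.8e-08). The other was Ank, a pyrophosphate transporter of lower level (-1.81, SE 0.39, edgeR adjusted p = 0.00465). Over all genes, 4.95% were called in this test of the difference.

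The signalling pathway of TREM2 and TYROBP was read in 20 genes. In unchallenged mice, where 11.0% of all genes were called, edgeR called none of 15 tested genes between engrafted cells and host microglia, and DESeq2 none, while 5 were lower and 0 higher in engrafted cells at an unadjusted p below 0.05. Among these, Lat2 and Plcg2, an adaptor and a phospholipase downstream of SYK, were lower by less than 2-fold (log2 -0.81 and -0.69, SE 0.15 and 0.14, edgeR adjusted p = 0.000153 and 0.000436). They are named here after their values were seen. After LPS, with 11.1% of all genes called, 1 of 17 was called higher, Trem3, at 48.7 CPM in engrafted and 6.40 CPM in host libraries. None was called lower by edgeR or DESeq2. At an unadjusted p below 0.05, 3 were higher and 6 lower. The median log2 fold changes were -0.17 and -0.27, beside 0.02 and -0.01 over all genes. LPS raised 3 and lowered 1 of 17 genes in engrafted cells, beside 21.5% of all genes called, and raised 1 and lowered 1 of 16 in host microglia, beside 18.0%, with medians of 0.02 and 0.18 beside -0.01 and 0.01 over all genes. Trem1 is another receptor that signals through TYROBP and a marker of neutrophils and monocytes. It went from 0.913 to 100.4 CPM in engrafted cells and from 1.60 to 104 CPM in host microglia, and was called in both. Its unchallenged means lay below the 2.39 to 8.41 CPM of 3 reads, so it passed the filter only through the LPS libraries. In both populations Trem1 thus went up where Trem2 went down. Blnk, an adaptor downstream of SYK, fell in engrafted cells (log2 -1.98, SE 0.20, edgeR adjusted p = 1.5e-07) and in host microglia (log2 -1.89, SE 0.18, edgeR adjusted p = 2.9e-08). Siglece, an inhibitory receptor for sialic acids, rose in engrafted cells (log2 1.28, SE 0.21, edgeR adjusted p = 7.9e-05). In the test of the difference between the LPS responses, edgeR and DESeq2 called none of the 17 genes, with 1 at an unadjusted p below 0.05.

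**Figure D5:**
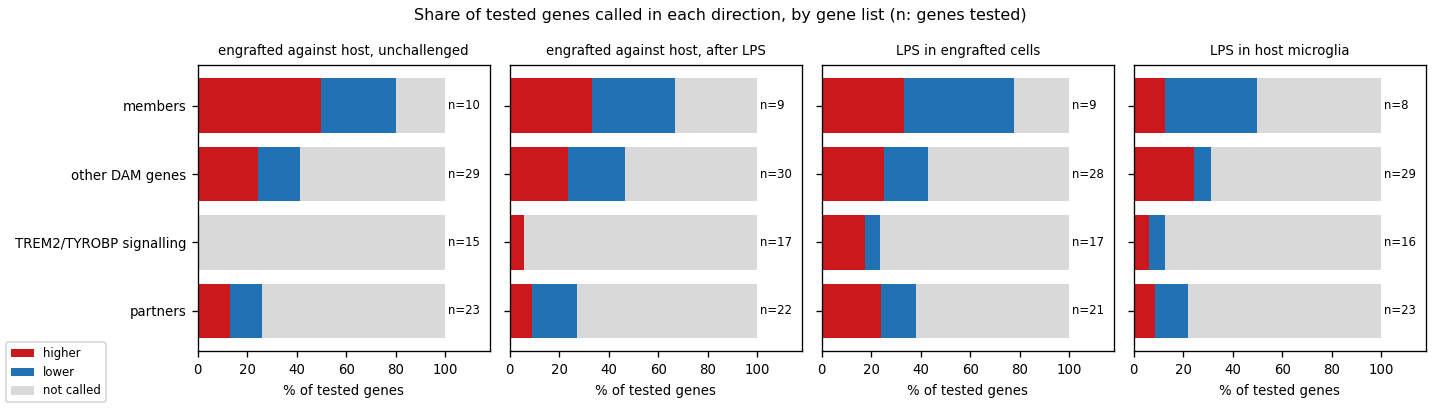
Share of the tested genes of each list called higher (red), called lower (blue) and not called (grey) in 4 comparisons, with the number tested beside each bar. Counts of the 10 genes (members) hold only those that passed the filter on low counts, and the share called over all genes was 11.0, 11.1, 21.5 and 18.0% from left to right. In each comparison, some of the members passed that filter only through the group where they were higher.

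Binding partners, receptors and regulators of the 10 genes formed the last list. In unchallenged mice, 3 of 23 were higher and 3 lower in engrafted cells, beside 11.0% of all genes called. After LPS 2 of 22 were higher and 4 lower, beside 11.1%. The medians were -0.31 and -0.24 beside 0.02 and -0.01 over all genes. LPS raised 5 and lowered 3 of 21 in engrafted cells, beside 21.5% of all genes called. In host microglia it raised 2 and lowered 3 of 23, beside 18.0%, which is near that share. The median was -0.17 in each. Ctsc, the protease that cystatin F inhibits, was at 794 CPM in unchallenged engrafted cells and 333 CPM in the host (log2 1.31, SE 0.13, edgeR adjusted p = 8.6e-09), opposite to Cst7, and its LPS response was more negative in engrafted cells (difference -1.49, SE 0.24, edgeR adjusted p = 0.000167). Cd81, a tetraspanin like Cd9, was lower in engrafted cells without challenge and after LPS (log2 -1.98 and -1.65, SE 0.11 and 0.18, edgeR adjusted p = 1.1e-13 and 2.3e-06). Itgam, which encodes the CD11b of the sorting gate, was lower in unchallenged engrafted cells (log2 -1.19, SE 0.12, edgeR adjusted p = 3.2e-08), with a more positive LPS response in them (difference 1.08, SE 0.21, edgeR adjusted p = 0.00155). Cd44, a receptor for osteopontin, rose from 18.2 to 204 CPM in engrafted cells after LPS (log2 3.44, SE 0.25, edgeR adjusted p = 2.2e-09). It rose in host microglia as well, from 5.42 to 16.4 CPM (log2 1.60, SE 0.36, edgeR adjusted p = 0.00113), and the responses differed by 1.84 (SE 0.48, edgeR adjusted p = 0.0194). Sdc4, a proteoglycan, rose in engrafted cells (log2 3.85, SE 0.27, edgeR adjusted p = 1.5e-09) and in host microglia (log2 3.94, SE 0.28, edgeR adjusted p = 3.4e-10), and was higher in engrafted cells than in the host after LPS (log2 1.95, SE 0.27, edgeR adjusted p = 4.3e-05). Tfeb, a regulator of lysosomal genes, fell in both (log2 -1.40 and -1.40, SE 0.23 and 0.28, edgeR adjusted p = 7.3e-05 and 0.000349), and Itgb5, an integrin chain, fell in engrafted cells (log2 -1.04, SE 0.19, edgeR adjusted p = 0.000276).

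Across the 16 libraries, the log2 levels of the 10 genes were not alike. These correlations describe libraries that share mice, populations and challenge, and carry no test. Trem2 and Spp1 had a Pearson correlation of -0.94, Trem2 and Clec7a of 0.82, and Trem2 and Tyrobp of 0.42. Cst7 and Igf1 were at -0.93, Cd9 and Lgals3 at -0.93, and Gpnmb and Igf1 at 0.90. Among the 3786 genes of at least 50 CPM that are not in the list, those most like each gene were Macf1 (0.98) and Serpinf1 (0.98) for Trem2, Etv3 (0.83) and Slc38a10 (0.81) for Tyrobp, Tspo (0.96) and Tuba1c (0.96) for Spp1, and Emp3 (0.98) and Adgre5 (0.98) for Lgals3. They were Pros1 (0.98) and Ldhb (0.97) for Cd9, Samsn1 (0.96) and Ctsl (0.94) for Cst7, Leprot (0.88) and Arfrp1 (0.87) for Itgax, and Rsbn1l (0.93) and Batf3 (0.92) for Clec7a. For Gpnmb they were Itga4 (0.97) and Ms4a7 (0.97), and for Igf1 Clec12a (0.96) and Pltp (0.95). All correlations of Gpnmb and Igf1 include host libraries at or near the limit of counting. These held 0 to 3 reads of Gpnmb and 1 to 8 of Igf1, so the values largely follow the gap between the populations.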

How the data were processed

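RNA of sorted cells was made into libraries by a derivation of MARS-seq, a 3' method. The deposited values are raw counts of reads per gene, which the authors made with HISAT (version 0.1.5 in the submitters' processing notes) on mm9 and HOMER, counting reads on exons of 1 RefSeq model per gene. No normalization had been applied. Removal of PCR duplicates is not given in the sources used here. All 16 sample columns were used and 0 sample columns were left unused.

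Comparisons were fitted in R 4.3.3 with edgeR 4.0.16 (TMM scaling, filterByExpr with a minimum count of 10 and a total of 15, glmQLFTest, prior count 0.125, Benjamini-Hochberg adjustment over all genes tested, SE as the log2 fold change over the root of F). The thresholds for a call were a log2 fold change beyond 1 in either direction and adjusted p below 0.05. CPM used TMM library sizes over all 16 libraries. Genes that did not pass the filter were compared with two-sided exact permutation tests. The scripts were tested on simulated counts. Both populations of a mouse carry the same number in the labels, so the numbers pair libraries by animal: deviations from group means correlated at -0.0356 to 0.209 within a mouse. Alternatives were DESeq2 1.42.0, other scalings, filters and thresholds, 1 fit of all libraries, the mouse as a block and each library left out in turn. Leaving out mice 4 and 8, a prior count of 2 and summed read ratios with each library left out were added after the data were seen. The 10 genes and the lists were chosen with earlier results of these data known. The text names all 10 genes, up to 2 called genes per list, direction and comparison at a mean of at least 50 CPM, and the 2 genes most correlated with each of the 10.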

Additional observations from a re-analysis of the deposited data

Results flagged for a closer look

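In 4 of the 40 groups of 4 libraries checked, 1 library lay far from the others (gap over range above 0.829), where chance gives about 1 in 20. Trem2 was at 1471 CPM in the host microglia of LPS mouse 2, with the next library at 1128 CPM. Cd9 was at 167 CPM in the engrafted cells of unchallenged mouse 6, with the next at 239 CPM. Lgals3 was at 257 CPM in the engrafted cells and at 30.6 CPM in the host microglia of unchallenged mouse 8, with the next libraries at 139.9 and 19.4 CPM. Mouse 8 is 1 of the 2 mice with red blood cell transcripts, and their part in these values was not tested.

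The LPS response differed between engrafted cells and host microglia, by edgeR's test of the difference over all 16 libraries, for Cst7 (1.17), Lgals3 (2.65) and Clec7a (-1.88) on the log2 scale, engrafted minus host. Beyond the 10 genes it differed for Ccl6 (3.29), Ch25h (-3.71), Lilrb4a (-2.78), Cd44 (1.84), Itgam (1.08) and Ctsc (-1.49), which were named by the rule on size and level.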

How the results depend on the processing

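Of 868 values of single genes under an alternative, 841 kept their direction and their side of the threshold, 12 came past it, 6 fell short of it and 9 turned sign. All 9 were the difference in LPS response of Tyrobp, main value -0.03: it was 0.00800 with RLE size factors, 0.00904 with DESeq2, 0.00660 without a filter, 0.0438 without mice 4 and 8, and between -0.12 and 0.0589 with 1 library left out, positive in 5 such fits, none past the threshold. With at least 10 reads required in every library, 2 genes in place of 5 were higher and 2 in place of 3 lower in unchallenged engrafted cells, 0 in place of 1 rose in host microglia after LPS, and 1 in place of 2 and 0 in place of 1 had the more positive and the more negative response in engrafted cells, since fewer genes were tested, and every other count stayed or fell by 1. By adjusted p whatever the fold, 2 genes in place of 1 rose in host microglia, the second being Cst7. Pairing libraries by mouse as a block, DESeq2 and no filter each gave 2 genes in place of 1 with the more negative response, the second being Igf1 (-2.50 with the block), and the block changed no other call of the 10 genes.

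With a library left out, 1 to 2 genes had the more positive response and 1 to 2 the more negative, 2 to 3 were lower in unchallenged engrafted cells, 3 to 4 higher in them after LPS, and 4 to 5 lower after LPS in engrafted cells. Igf1 came past the threshold without the host library of mouse 1 or 7 or the engrafted library of mouse 3 or 4 (-3.45 to -2.60). With library totals in place of TMM, the genes called after LPS were 448 higher and 470 lower in engrafted cells, in place of 528 and 340, and the calls of the 10 genes did not change. Depth limits Gpnmb and Igf1 in host microglia and Itgax in engrafted cells.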
